A study of Mus musculus with 186 samples.

Results

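The genes described here are 36 genes of skeletal muscle, measured in the skin. They were taken by gene symbol from a list of sarcomere proteins, calcium-handling proteins, muscle enzymes and myogenic factors, and all 36 were found among the 22095 genes of the expected-count table through their Ensembl identifiers. All 36 were among the 15825 genes that passed the filter on low counts. Back skin of the mouse lies on a thin sheet of striated muscle, the panniculus carnosus, and a punch biopsy can carry part of it. The labels do not say how deep each punch went.

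A muscle fibre contracts when calcium released through Ryr1, a channel that opens on the signal of the voltage sensor Cacna1s, binds troponin on the actin filament and lets myosin pull. Fast and slow fibres use different genes for myosin, troponin and the calcium pump, and fibres that are forming or regenerating use the embryonic myosin Myh3 and the perinatal myosin Myh8 before the adult ones. Regeneration starts from satellite cells, which turn on Myod1 and then Myog, the transcription factor of terminal differentiation, as they fuse into new fibres.

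The mice were female C57BL/6 animals of about 12 weeks, shaved on the back and injected under the skin 5 times a week for 2 weeks with bleomycin at 10 mg/kg/day, a DNA-damaging drug that induces fibrosis, or with PBS. Skin was taken after bleomycin on day 7 (n = 7) and day 14 (n = 8), with PBS mice on day 7 (n = 8) and day 14 (n = 8). These 4 groups received nothing by mouth. From day 12 the remaining mice were dosed orally with SB525334, an inhibitor of the TGF-beta receptor ALK5, at 30 mpk, or with its vehicle, until day 27. On day 21 there were bleomycin mice on SB525334 (n = 9), bleomycin mice on vehicle (n = 7) and PBS mice on vehicle (n = 8). The same 3 groups on day 28 had n = 8, n = 7 and n = 7. On day 42 bleomycin mice with vehicle (n = 8) were set against PBS mice with vehicle (n = 8). The labels number the replicates but do not say that each library came from a separate mouse, so the p-values measure the spread between these libraries.

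Total RNA libraries held between 14.68 and 43.07 M counts, with a median of 19.68 M. Epidermal markers, a check of the skin label, summed to between 4909 and 29480 CPM (counts per 1000000 counts, scaled with TMM factors) over the 12 groups. The 36 muscle genes summed to a median of 13390 CPM in the 93 skin libraries, against 635.6 CPM in the 93 lung libraries of the same study, where Ttn made up most of the sum. Some libraries stood apart from others of the same label. Replicate 8 of PBS day 7 had the highest sum in skin, 79970 CPM, and Myh3, Myh8 and Myog at 140 CPM, 216 CPM and 13.6 CPM, against at most 5.86, 7.59 and 0.953 CPM in the other 7 PBS libraries of that day. Its Cdkn1a and Mdm2, genes of the DNA-damage response, were at 39.3 and 74.4 CPM, against 84.7 to 119 CPM and 95.8 to 129 CPM in the bleomycin libraries of day 7 and 43.0 to 54.8 CPM and 66.3 to 80.5 CPM in the other PBS libraries. At the other end, replicate 1 of PBS day 21 and replicates 1 and 2 of PBS day 28 held less than 100 CPM of the 36 genes together. Replicate 7 of PBS day 7 held most of the Myh7 of its group. Results that rest on these libraries are given with and without them. In such bulk samples, fewer muscle cells and less muscle RNA per cell cannot be told apart.

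Muscle transcripts were abundant in the control skin of days 7 and 14 and scarcer in later control skin. The summed level of the 36 genes had a lowest, median and highest value of 4197, 8445 and 15420 CPM in bleomycin skin on day 7, against 15650, 23650 and 79970 CPM in PBS skin. On day 14 it was 6701, 8876 and 13630 CPM after bleomycin, against 10090, 20290 and 29460 CPM after PBS. The order was the other way on day 21, with 13390, 20490 and 43820 CPM in bleomycin skin on vehicle, against 54.5 to 9966 CPM and a median of 3438 CPM in PBS skin on vehicle. On days 28 and 42 the groups overlapped, with medians of 12380 CPM after bleomycin against 5473 CPM after PBS on day 28, and of 14050 CPM against 6835 CPM on day 42. Control skin itself differed between days. Of the 36 genes, 34 differed among the 5 PBS groups (edgeR quasi-likelihood F test, adjusted p under 0.05), where 55.2% of all genes tested did so. Myh1 and Myod1 did not pass. Day 7 and day 14 controls had no oral dosing and the later controls had vehicle, so day and dosing cannot be told apart here.

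**Figure D1:**
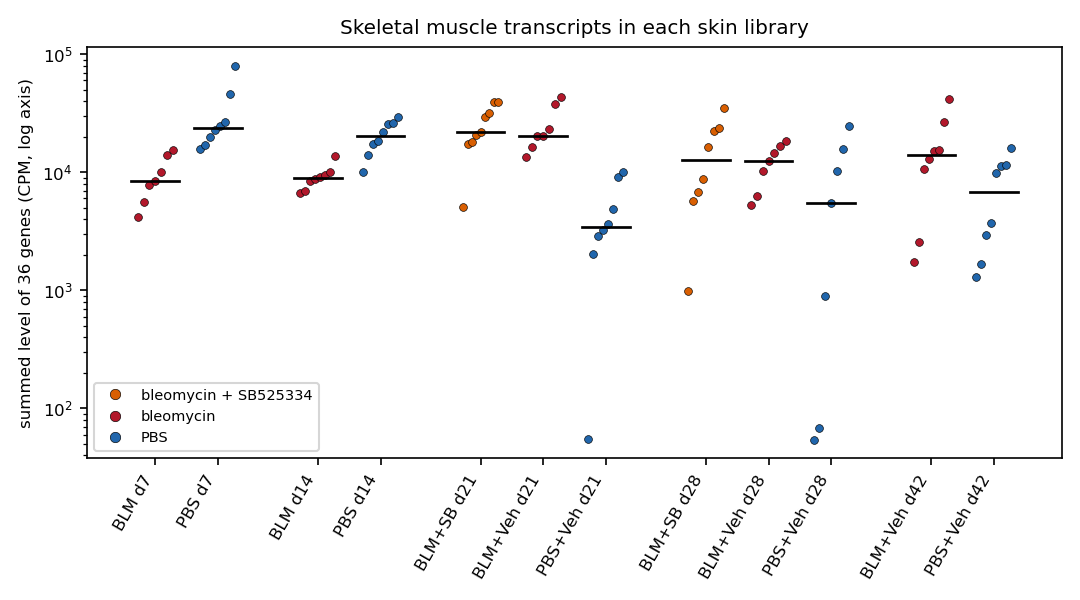
Summed level of the 36 skeletal muscle genes in each of 93 skin libraries (CPM, log axis), by treatment and day; each point is 1 library and each bar the group median. PBS medians lie above bleomycin medians on days 7 and 14 and below them on days 21, 28 and 42, without overlap on days 7 and 21, and 3 PBS libraries on days 21 and 28 lie under 100 CPM.

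On day 7 the adult muscle genes were lower after bleomycin. Acta1, skeletal muscle actin, had a lowest, median and highest level of 146, 322 and 527 CPM in bleomycin skin and of 617, 929 and 2498 CPM in PBS skin. Every bleomycin library was below every PBS library, and the fitted change was a log2 fold change of -1.75 ± 0.69 (SE; adjusted p = 0.0307). Ryr1, the calcium release channel, was at 38.8, 92.8 and 132 CPM in bleomycin skin, against 182, 251 and 576 CPM in PBS skin, and fell by 1.73 ± 0.53 on the log2 scale (adjusted p = 0.00541). Ckm, muscle creatine kinase, was at 75.7, 157 and 287 CPM, against 285, 444 and 1232 CPM, with a log2 fold change of -1.69 ± 0.63 (adjusted p = 0.022). Its highest bleomycin library lay within the PBS range.

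In all, 23 of the 36 genes fell and none rose on day 7 (20.7% of all genes tested fell and 25.5% rose, 46.2% in all). The members' share was 63.9%, with a median log2 fold change of -1.45, against 0.02 over all genes. The groups of 5 genes did not overlap, namely Acta1, Ttn, Atp2a1, Cacna1s and Ryr1, where 5.55% of all genes tested were lower without overlap. By role, all 3 energy enzymes (Ckm, Eno3 and Pygm) fell, as did all 4 myosin light chains and 4 of 5 calcium-handling genes. The smallest p-values belonged to Myh2, the fast IIa myosin (-3.56 ± 0.94, adjusted p = 0.00134), to Ryr1 and to Myl2, the slow and cardiac regulatory light chain (-6.24 ± 1.91, adjusted p = 0.00558). Myl2 and Myh7, the slow myosin also used in the heart (-4.87 ± 1.52), rested on 1 PBS library: Myh7 was at 89.8 CPM in PBS replicate 7, and its median was 0.382 CPM in bleomycin skin and 0.276 CPM in PBS skin. Without that library 15 genes fell, where 22.3% of all genes tested in that fit fell. Myh7, all 4 myosin light chains (Myl1, Myl2, Myl3 and Mylpf), Mybpc1, Myot and Neb no longer passed.

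Replicate 8 of PBS day 7 set much of the count. Without it 8 genes fell (Myh2, Myh7, Myl2, Myl3, Atp2a1, Ryr1, Cacna1s and Eno3) and 2 rose. Of all genes tested in that fit 21.7% fell and 22.8% rose. The share of muscle genes that fell was thus near this background, and the share that rose was below it. Of the 8 genes, Myh7, Myl2 and Myl3 were also among those that no longer passed without PBS replicate 7. A fit without both libraries was not run. The 2 that rose were Myh3, with a log2 fold change of 3.26 and adjusted p = 0.000986, and Myog, with 2.23 and adjusted p = 0.00479. With all libraries Myh3 was at 0.611, 7.67 and 68.3 CPM (lowest, median and highest) in bleomycin skin and at 0, 0.871 and 140 CPM in PBS skin, and its log2 fold change was 0.07 ± 0.80 (adjusted p = 0.949). Myog was at 0.555, 1.98 and 9.55 CPM in bleomycin skin, against 0.321, 0.622 and 13.6 CPM in PBS skin, a log2 fold change of 0.42 ± 0.64 (adjusted p = 0.621). In each gene 6 of 7 bleomycin libraries were above the PBS median.

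On day 14, at the end of the injections, the genes moved in both directions. Both developmental myosins, both myogenic factors and 3 of 6 slow-fibre genes rose, and 7 of 14 fast-fibre genes fell. The difference between these classes was not tested. Myh3 had a lowest, median and highest level of 10.6, 106 and 273 CPM in bleomycin skin, against 0.187, 1.11 and 11.1 CPM in PBS skin. Only the lowest bleomycin library reached the PBS range, and the log2 fold change was 5.28 ± 0.93 (adjusted p = 1.34e-06). Myh8 was at 4.49, 54.2 and 158 CPM after bleomycin, against 1.06, 2.84 and 9.18 CPM after PBS, and rose by 3.86 ± 0.80 (adjusted p = 2.51e-05).

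The myogenic factors rose with them. Myog was at 3.80, 8.05 and 15.7 CPM after bleomycin and at 0.252, 0.845 and 4.42 CPM after PBS, with all 8 bleomycin libraries above the PBS median and a log2 fold change of 2.79 ± 0.65 (adjusted p = 0.000161). Myod1 was at 1.20, 1.54 and 3.15 CPM, against 0.236, 0.588 and 1.37 CPM, and rose by 1.45 ± 0.50 (adjusted p = 0.00931).

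Slow troponins made up the rest of the rise. Tnni1, slow troponin I, which fetal fibres of both kinds also use, was at 3.24, 14.3 and 28.8 CPM after bleomycin and at 0.405, 0.717 and 3.19 CPM after PBS. This was the only one of the 36 genes whose groups did not overlap on this day, where 11.9% of all genes tested were higher without overlap. It rose by 3.65 ± 0.61 (adjusted p = 4.28e-07). The other slow troponins, Tnnc1 (3.43 ± 0.69) and Tnnt1 (2.54 ± 0.62), rose too. Myh7, Myl2 and Myl3, the slow fibre myosin genes, had log2 fold changes of 0.42, -0.51 and -0.99 that did not pass. Myh7 was at 36.5 CPM in PBS replicate 6, the highest of its group. Its median was 0.405 CPM per kb of exon after bleomycin, against 0.00866 after PBS. The medians of Myl2 and Myl3 were 0.0688 and 0.051, against 0.00772 and 0.0395, with highest PBS values of 3.82 and 0.849. A fit without PBS replicate 6 was not run.

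Against these, Myh4, the myosin of the fastest IIb fibres, was at 141, 226 and 919 CPM after bleomycin, against 809, 1901 and 3395 CPM after PBS, and fell by 2.57 ± 0.79 on the log2 scale (adjusted p = 0.0037). Only its highest bleomycin library reached the PBS range. Pvalb, the calcium buffer of fast fibres, fell by 2.17 ± 0.63 (adjusted p = 0.00209), and Pygm, muscle glycogen phosphorylase, fell by 1.64 ± 0.56 (adjusted p = 0.00897). Ckm was at 101, 139 and 225 CPM, against 186, 465 and 565 CPM, and fell by 1.60 ± 0.60 (adjusted p = 0.0165). Tnni2, fast troponin I, fell by 1.45 ± 0.58 (adjusted p = 0.0266), with 47.5 to 100 CPM after bleomycin against 84.1 to 245 CPM after PBS. Acta1 was at 289, 403 and 623 CPM, against 429, 959 and 1307 CPM, a change of -1.26 ± 0.65 that did not pass (adjusted p = 0.0858).

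Counted together, 7 of 36 genes rose (31.5% of all genes tested rose) and 11 fell (28.1% of all genes tested fell). The member shares of 19.4% and 30.6% were below and near these backgrounds, so the counts alone say nothing particular about the set on day 14, when 59.6% of all genes tested differed. Of 14 fast-fibre genes 7 fell and none rose, both developmental myosins rose, and of 6 slow-fibre genes 3 rose and none fell. Fitted with only the 2 groups of that day, 23 genes fell, where 33.1% of all genes tested in that fit fell. Each of the 18 changes ran in 1 direction in plate 1 and plate 2, as read from the P1 and P2 codes in the labels.

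**Figure D2:**
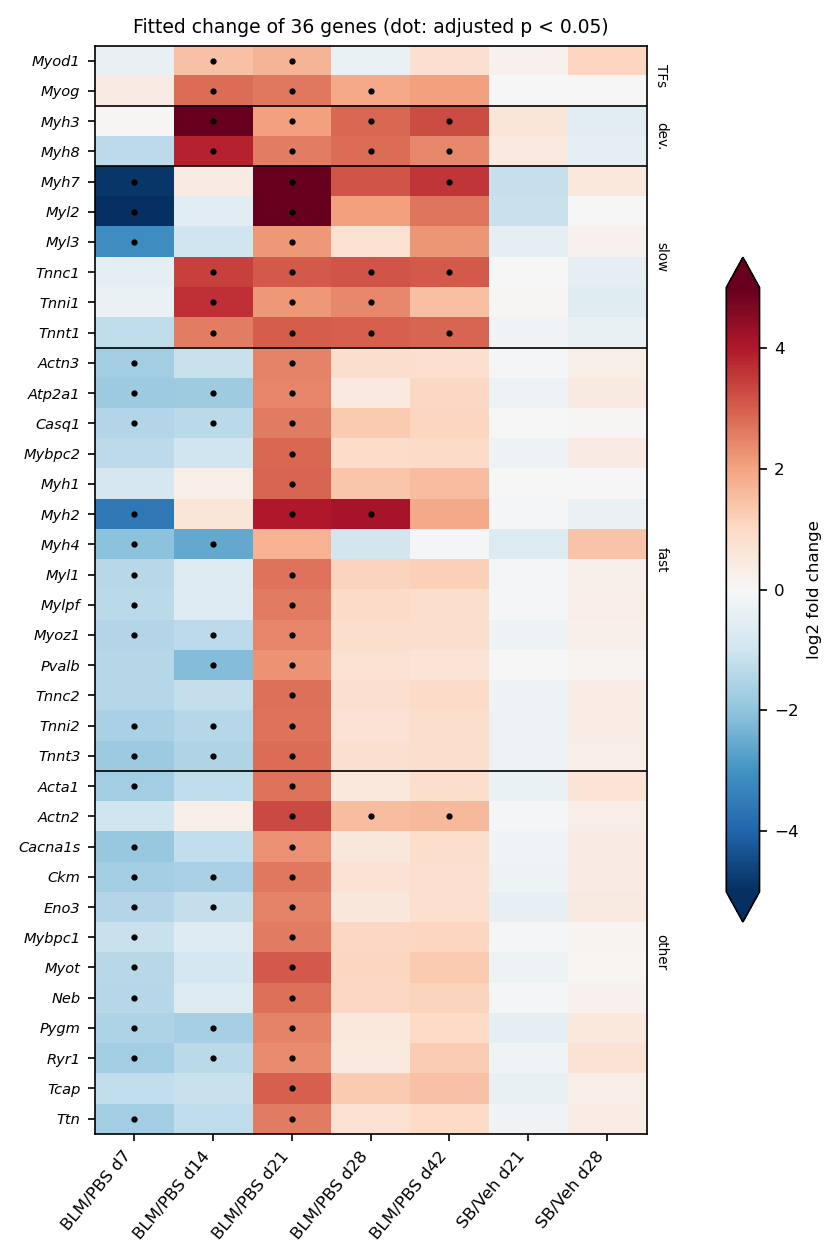
Fitted log2 fold changes of the 36 genes (rows, grouped as myogenic factors, developmental, slow-fibre, fast-fibre and other genes) in 5 comparisons of bleomycin with PBS and 2 of SB525334 with vehicle (columns); a dot marks an adjusted p under 0.05. On day 14 the myogenic factors, the developmental myosins and the 3 slow troponins are red and most fast-fibre rows are blue, on day 21 nearly all rows are red, and the SB525334 columns carry no dot.

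The stretches of DNA around the starts of 4 of these genes are shown because 2 of the genes, Myog and Myh3, rose on day 14 and the other 2, Myh4 and Ckm, fell. Each is the RefSeq GRCm38.p6 window of 300 bases, 250 before the start and 50 after it, printed 5′ to 3′ on the gene's strand, and capitals mark CANNTG, the E-box bound by Myod1 and Myog. The windows lie at chr1:134289754-134290053 (Myog), chr11:67078050-67078349 (Myh3), chr11:67237562-67237861 (Myh4) and chr7:19410844-19411143 (Ckm), all on the plus strand.
Myog: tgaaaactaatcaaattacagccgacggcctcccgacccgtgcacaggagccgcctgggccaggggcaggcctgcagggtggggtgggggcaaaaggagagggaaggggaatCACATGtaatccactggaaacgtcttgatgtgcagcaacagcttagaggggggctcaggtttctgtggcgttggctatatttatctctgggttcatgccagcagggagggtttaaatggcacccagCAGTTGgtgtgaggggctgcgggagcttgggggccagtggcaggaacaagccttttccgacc
Myh3: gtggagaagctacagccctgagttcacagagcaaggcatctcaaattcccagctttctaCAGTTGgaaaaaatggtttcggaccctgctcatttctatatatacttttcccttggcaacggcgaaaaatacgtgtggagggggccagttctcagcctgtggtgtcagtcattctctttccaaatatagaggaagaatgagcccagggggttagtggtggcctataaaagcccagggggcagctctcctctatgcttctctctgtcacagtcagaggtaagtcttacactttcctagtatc
Myh4: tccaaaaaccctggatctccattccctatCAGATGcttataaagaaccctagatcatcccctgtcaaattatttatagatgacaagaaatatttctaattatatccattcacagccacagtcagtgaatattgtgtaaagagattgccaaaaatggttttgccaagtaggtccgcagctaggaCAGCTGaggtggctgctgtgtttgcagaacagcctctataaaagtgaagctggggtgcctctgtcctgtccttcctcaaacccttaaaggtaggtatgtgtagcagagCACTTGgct
Ckm: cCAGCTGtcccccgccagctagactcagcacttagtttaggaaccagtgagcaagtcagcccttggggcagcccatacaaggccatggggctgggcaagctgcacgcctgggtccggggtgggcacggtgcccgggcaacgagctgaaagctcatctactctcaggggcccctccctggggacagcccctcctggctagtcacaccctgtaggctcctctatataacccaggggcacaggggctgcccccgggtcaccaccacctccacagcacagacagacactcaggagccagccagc
Myog held 2 matches, at -138 and -12 from the start, Myh3 held 1 at -191, Myh4 held 3 at -221, -67 and 41, and Ckm held 1 at -249. The motif reads the same on both strands. At least 1 match was present in 28 of 32 member windows (25 of 28 members with a window) and in 72.3% of all 32851 windows. The narrower CAGCTG, which CANNTG includes, was in 15 of 32 member windows (13 of 28 members) and in 16.3% of all windows. A match of letters is not a bound site, and the genes that rose and those that fell both held matches.

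**Figure D3:**
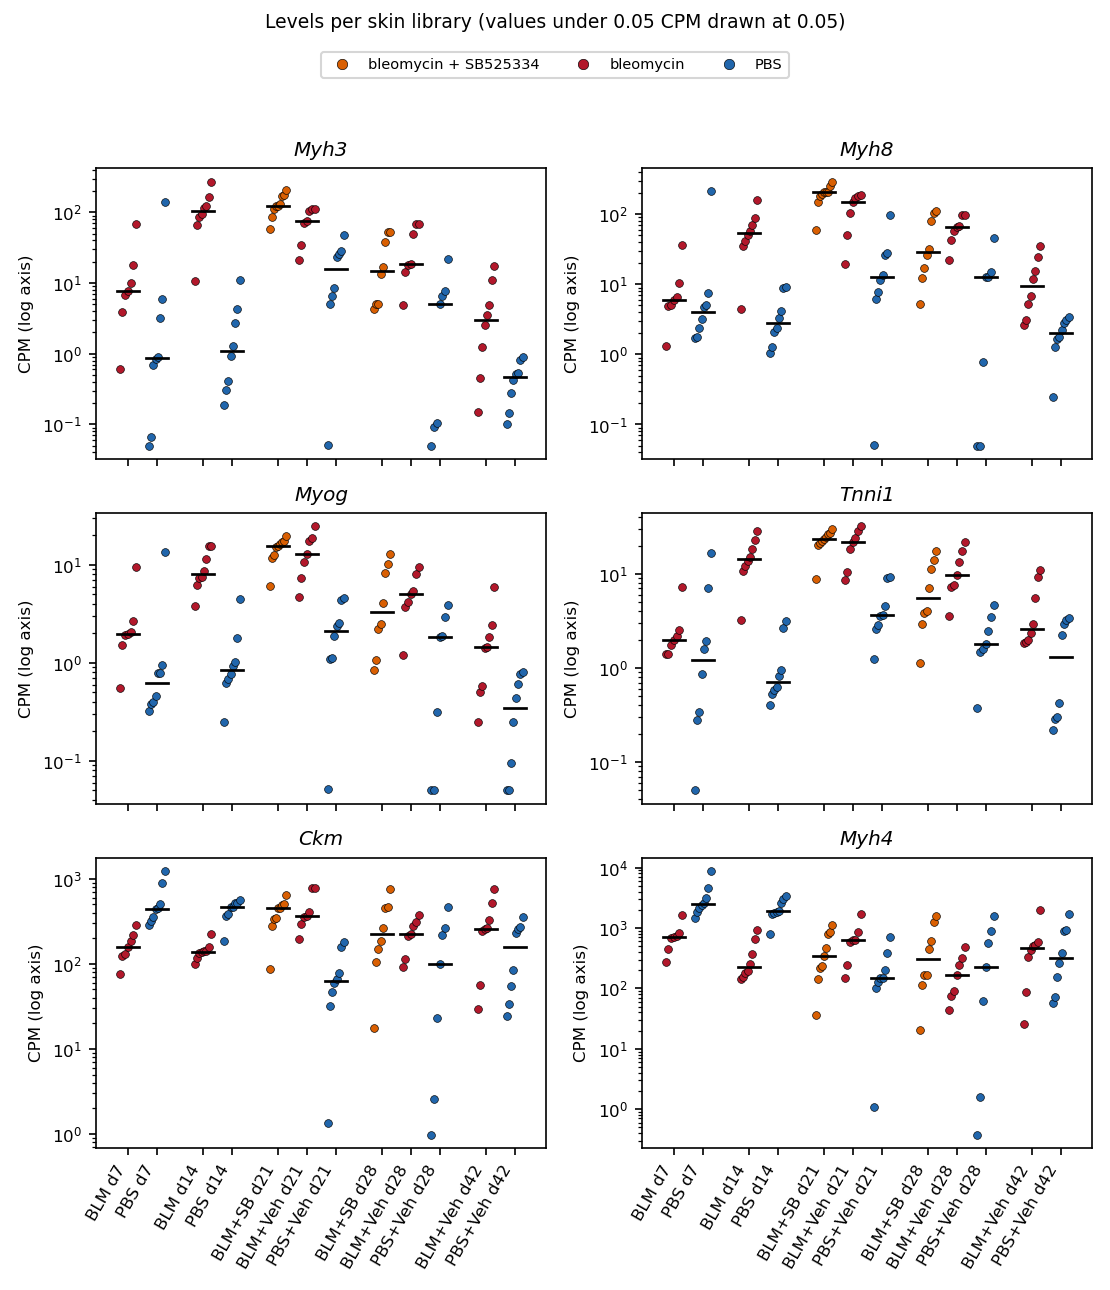
Levels of Myh3, Myh8, Myog, Tnni1, Ckm and Myh4 in each skin library (CPM, log axis), with group medians as bars. The medians of Myh3, Myh8, Myog and Tnni1 lie higher in bleomycin than in PBS skin on every day. Those of Ckm lie lower in bleomycin skin on days 7 and 14, and those of Myh4 on days 7, 14 and 28. The high PBS point on day 7 is replicate 8.

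On day 21, after the injections had ended, nearly the whole set was higher in bleomycin skin than in PBS skin, both on oral vehicle. Ckm had a lowest, median and highest level of 197, 364 and 773 CPM after bleomycin, against 1.33, 63.2 and 180 CPM after PBS. The groups did not overlap, and the log2 fold change was 2.63 ± 0.63 (adjusted p = 0.000532). Myh7 was at 1.02, 26.04 and 37.6 CPM after bleomycin, against 0, 0.431 and 0.963 CPM after PBS, and rose by 5.84 ± 1.46 (adjusted p = 0.000829).

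The smallest p-values belonged to Actn2, an alpha-actinin of the Z-disc (3.28 ± 0.57, adjusted p = 3.46e-06), Mybpc1, slow myosin-binding protein C (2.58 ± 0.47, adjusted p = 1.03e-05), and Myot, the Z-disc protein myotilin (3.07 ± 0.60, adjusted p = 2.72e-05). Actn2 was at 35.3 to 161 CPM after bleomycin and at 0.256 to 18.0 CPM after PBS. Myh3 was at 21.2, 75.5 and 112 CPM, against 0.0512, 15.9 and 48.2 CPM, and rose by 2.07 ± 0.80 (adjusted p = 0.0318), with overlapping groups. Myh4 was the only gene that did not pass, at 151, 629 and 1720 CPM after bleomycin and 1.08, 147 and 697 CPM after PBS (1.74 ± 0.79, adjusted p = 0.0681).

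On this day 35 of 36 genes rose and none fell, where 20.2% of all genes tested rose and 21.0% fell. The median log2 fold change was 2.62, against -0.03 over all genes, and 24 genes had groups that did not overlap, where 4.20% of all genes tested were higher without overlap. PBS skin of that day was itself low, at a median sum of 3438 CPM, against 20290 CPM in PBS skin on day 14. Without the 3 PBS libraries under 100 CPM 33 genes rose, where 17.8% of all genes tested in that fit rose. Myh3 and Myl3 no longer passed. Plate 1 and plate 2 gave all 35 a positive change.

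By days 28 and 42 edgeR's test called fewer genes, among them both developmental myosins and 3 of 6 slow-fibre genes on each day. On day 28 8 of 36 genes rose and none fell (12.7% of all genes tested rose and 11.6% fell). This count depended on the tool: limma voom called 26 up, where it called 19.5% of all genes up, and limma on the deposited log2 values 29, against 12.3%. The 8 genes that edgeR called included Myh2 (4.11 ± 0.99), Tnnc1 (3.14 ± 0.75), Tnnt1 (2.98 ± 0.69) and Myh3 (2.86 ± 0.90). The others were Myh8 (2.78 ± 0.80), Tnni1 (2.40 ± 0.61), Myog (1.88 ± 0.69) and Actn2 (1.56 ± 0.57). Tnnt1 and Myh2 had the smallest p-values (adjusted p = 0.00059 and 0.000963), and Myh2 was at 11.0, 66.6 and 155 CPM after bleomycin, against 0.186, 2.91 and 20.5 CPM after PBS. Myh8 was at 22.4, 65.7 and 97.2 CPM, against 0, 12.6 and 45.3 CPM. None of the 36 genes had groups that did not overlap, against 5.06% of all genes tested. Without the 3 PBS libraries under 100 CPM 5 genes rose, where 10.6% of all genes tested in that fit rose. Myh3, Myog and Actn2 no longer passed. Actn2 was also the only one of the 8 whose sign differed between the plates.

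On day 42 6 of 36 genes rose and none fell (5.28% of all genes tested rose and 4.96% fell, 10.2% in all). Tnnt1 (2.93 ± 0.65, adjusted p = 0.0014), Tnnc1 (3.08 ± 0.76, adjusted p = 0.00451) and Actn2 (1.62 ± 0.53, adjusted p = 0.0368) led, followed by Myh3, Myh8 and Myh7. Myh3 was by then at 0.150, 3.02 and 17.3 CPM after bleomycin, against 0.0997, 0.473 and 0.907 CPM after PBS, and 6 of 8 bleomycin libraries were above the PBS median. Tnni1 was at 1.85, 2.62 and 11.0 CPM, against 0.219, 1.32 and 3.39 CPM, and did not pass (1.52 ± 0.58, adjusted p = 0.0725). Ckm, at 29.1, 257 and 763 CPM against 24.3, 158 and 357 CPM, and Myh4, with a log2 fold change of -0.08 ± 0.75, did not pass either. These calls depended on the tool, since limma voom with quality weights called none of the 36, where it called 6.44% of all genes.

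The difference between bleomycin and PBS skin was then compared between days. It differed among the 5 days in 35 of 36 genes (62.0% of all genes tested), with Myog as the exception. Without replicate 8 of PBS day 7, Myh3, Myod1 and Myh8 did not pass either (adjusted p = 0.0519, 0.0629 and 0.185). On day 42 it was higher than on day 14 in 23 genes (23.0% of all genes tested) and lower in 1 (27.9% of all genes tested; 50.9% in either direction). Pvalb differed by 2.87 ± 0.86 on the log2 scale (adjusted p = 0.00416), Ryr1 by 2.61 ± 0.70 (adjusted p = 0.00142) and Ckm by 2.44 ± 0.83 (adjusted p = 0.0112). Tnni1 was the gene that was lower, by -2.12 ± 0.82 (adjusted p = 0.0251), and Myh3 (-2.01 ± 1.48) and Myh8 (-1.44 ± 1.09) did not pass.

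Shares within the myosin heavy chains compare muscle with muscle in the same library. Of the 6 genes, Myh3, Myh2, Myh1, Myh4 and Myh8 lie side by side on chromosome 11 of GRCm38, between 67078300 and 67308634, and Myh7 lies on chromosome 14. Of the 50-base stretches of each longest transcript, 26.1% of Myh1, 26.7% of Myh2, 18.6% of Myh4 and 19.9% of Myh8 occur in another of these genes, against 3.66% of Myh3 and 0.21% of Myh7. The split of reads among Myh1, Myh2, Myh4 and Myh8 is therefore less certain than that of Myh3 and Myh7. Shares were computed from counts per kb of exon, and 42 comparisons of 6 genes were tested with exact two-sided permutation tests and Benjamini-Hochberg adjustment.

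Bleomycin skin held a smaller share of Myh4 and a larger share of Myh1, the IIx myosin. On day 14 Myh4 held a lowest, median and highest share of 11.6%, 19.8% and 54.2% of the myosin in bleomycin skin, against 58.2%, 81.2% and 86.7% in PBS skin. Myh1 held 43.9%, 59.8% and 71.3%, against 13.2%, 17.2% and 41.02%. Neither gene's groups overlapped. Both reached the smallest p that 8 against 8 libraries can give (exact p = 0.000155, adjusted p = 0.00163). Myh3 held 0.854%, 9.13% and 20.1% after bleomycin and 0.00473%, 0.0720% and 0.365% after PBS on that day, and Myh8 held 0.185%, 2.69% and 5.97%, against 0.0268%, 0.0636% and 0.156% (exact p = 0.000155 for each). Within plates the mean Myh4 share was 31.8% after bleomycin against 78.6% after PBS in plate 1, and 22.6% against 76.1% in plate 2.

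The Myh4 share was lower after bleomycin on day 21 (median 21.6% against 34.5%, exact p = 0.00326, adjusted p = 0.0144), day 28 (10.4% against 41.6%, exact p = 0.000583, adjusted p = 0.00408) and day 42 (22.9% against 46.4%, exact p = 0.00171, adjusted p = 0.00898). On day 28 the groups did not overlap. The Myh1 share was higher on days 21, 28 and 42, with adjusted exact p of 0.0144, 0.00408 and 0.016, and on day 7 (median 40.0% against 19.6%, adjusted exact p = 0.0452). The Myh4 share of day 7, 57.9% against 78.9%, did not pass (adjusted exact p = 0.0531). Myh7 held a larger share after bleomycin on days 21 and 28, at medians of 0.505% against 0.0426% and of 0.284% against 0.0116% (adjusted exact p = 0.00744 and 0.0326). In all 13 of 42 tests passed. PBS skin also changed its mix, with a median Myh4 share of 78.9% on day 7 and 81.2% on day 14, and of 34.5%, 41.6% and 46.4% on days 21, 28 and 42. The number of myosin reads was under 1000 in 3 libraries, with a lowest value of 21. Without the 3 libraries under 100 CPM 16 tests passed. The Myh7 share of day 28 then no longer passed (adjusted exact p = 0.109). Newly passing were the shares of Myh4 on day 7, Myh2 on days 21 and 28 and Myh8 on day 28.

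**Figure D4:**
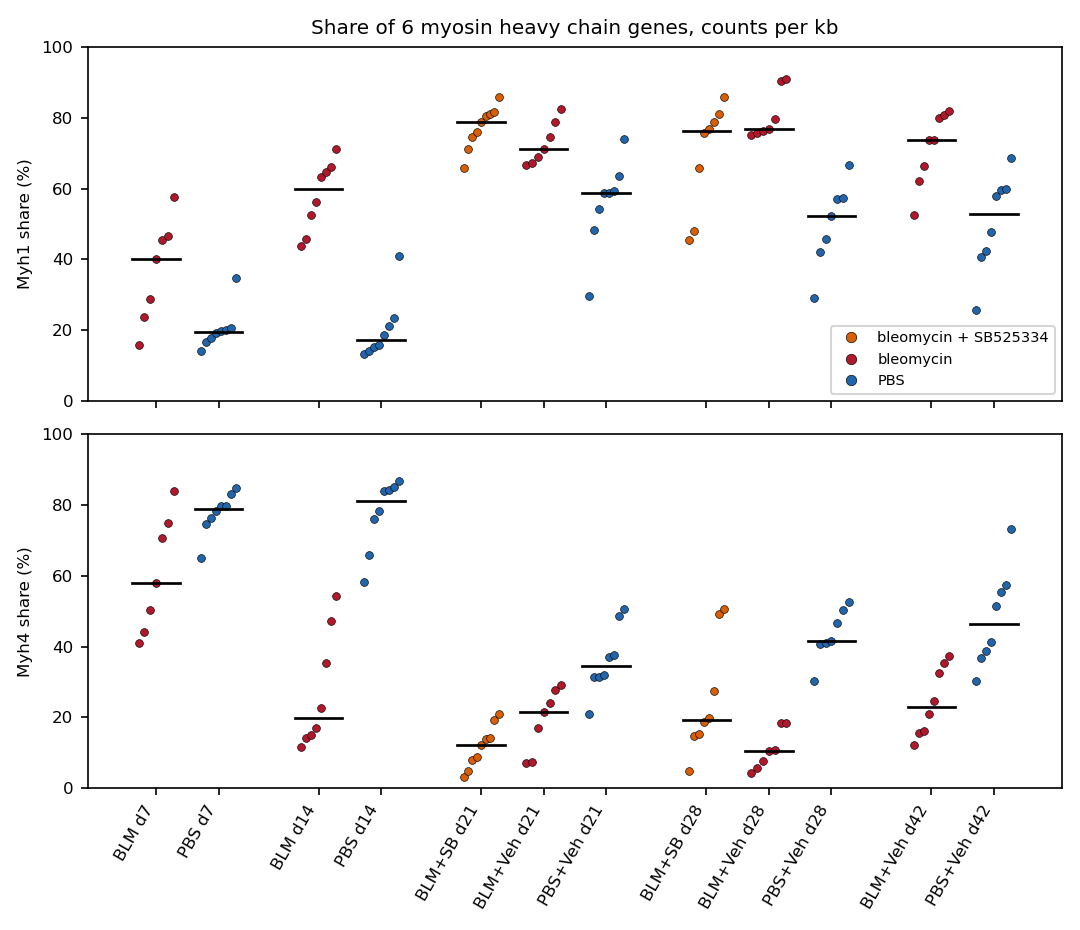
Share of Myh1 (upper panel) and Myh4 (lower panel) in the summed counts per kb of 6 myosin heavy chain genes (percent), per skin library, with group medians as bars. Bleomycin medians lie above PBS medians for Myh1 and below them for Myh4 on every day, without overlap on days 14 and 28. PBS medians of the Myh4 share from day 21 on lie below those of days 7 and 14.

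Troponin isoform shares were not tested. Tnni1 made up a median of 9.47% of the troponin I transcripts per kb (Tnni1 and Tnni2) in bleomycin skin on day 14, against 0.148% in PBS skin. The medians were 4.19% against 4.96% on day 21, 3.42% against 2.58% on day 28 and 1.42% against 0.677% on day 42. Per kb of exon, the median level in PBS skin of day 14 was highest for Acta1 (624.6 CPM per kb), then Myh4 (316) and Tnnt3 (242), whereas in bleomycin skin Acta1 (262) was followed by Myh1 (123) and Mylpf (117).

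SB525334 did not move any of the 36 genes past the threshold. On day 21 bleomycin skin under SB525334 had 87.2, 447 and 646 CPM of Ckm (lowest, median and highest), against 197, 364 and 773 CPM under vehicle, a log2 fold change of -0.26 ± 0.59 (adjusted p = 0.833). Myh3 was at 57.7, 122 and 210 CPM, against 21.2, 75.5 and 112 CPM (0.61 ± 0.77, adjusted p = 0.681), and Myog was at 6.05, 15.4 and 19.5 CPM, against 4.72, 13.0 and 24.7 CPM (adjusted p = 0.998). The groups overlapped in each of the 36 genes, and did not overlap in 1.06% of all genes tested.

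On day 28 Myh4 was at 20.9, 308 and 1557 CPM under SB525334, against 44.4, 166 and 481 CPM under vehicle (1.43 ± 0.79, adjusted p = 0.182), and Myod1 was at 0.395, 0.670 and 2.03 CPM, against 0.145, 0.453 and 0.719 CPM (1.07 ± 0.55, adjusted p = 0.148). Acta1 was at 56.8, 689 and 2011 CPM, against 209, 544 and 778 CPM (0.68 ± 0.66, adjusted p = 0.492). By edgeR's quasi-likelihood test 0 of 36 genes were called on day 21 and 0 on day 28, and 0 had an unadjusted p under 0.05 on either day, where 11.8% of all genes tested were called on day 21 (5.81% up, 6.02% down) and 23.9% on day 28 (12.2% up, 11.6% down). The groups overlapped in each of the 36 genes on day 28 too, where 5.92% of all genes tested did not overlap. DESeq2 and limma voom also called 0 on both days, where DESeq2 called 14% and 25% of all genes and limma voom 21.7% and 41.8%. At an unadjusted p under 0.05 DESeq2 had 0 genes on day 21 and 2 on day 28, and limma voom 2 and 1. The difference between the 2 days' effects was called in 0 of 36 genes (0.0569% of all genes tested, 0.0190% up and 0.0379% down). A p that misses the threshold does not show that SB525334 left these genes unchanged, and the standard error of Ckm was 0.59 on day 21 and 0.60 on day 28.

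The 36 genes rose and fell together from library to library within groups, and the slow and developmental genes did so least. Each gene's log2 CPM was set against the mean of the other 35 over 93 libraries, with group and plate means subtracted. Pearson's r had a median of 0.949, and 27 genes had r of at least 0.8, from Myog (0.814) to Neb, the nebulin of the thin filament (0.979). The other 9 were Myh8 (0.797), Myh2 (0.714), Tnnc1 (0.683), Myh3 (0.630), Tnnt1 (0.597), Myh7 (0.484), Myl2 (0.397), Myl3 (0.341) and Tnni1 (0.326). All 6 slow-fibre genes and both developmental myosins were thus in the lower group. Some of these genes were near the floor, with medians over the skin libraries of 0.124 CPM for Myl3 and 0.68 CPM for Myh7. Myh3 had a median of 10.0 CPM, and Myog, in the upper group, of 2.40 CPM. Whether low counts lowered r was not tested. Spearman's rho ran from 0.340 to 0.962, and leaving out the 2 libraries farthest from the median left r between 0.419 and 0.973. The median r was 0.960 in plate 1 and 0.930 in plate 2. Over 36 tests the largest adjusted permutation p was 0.00164 for r and 0.00097 for rho (100000 permutations). The genes share the libraries and their scaling.

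**Figure D5:**
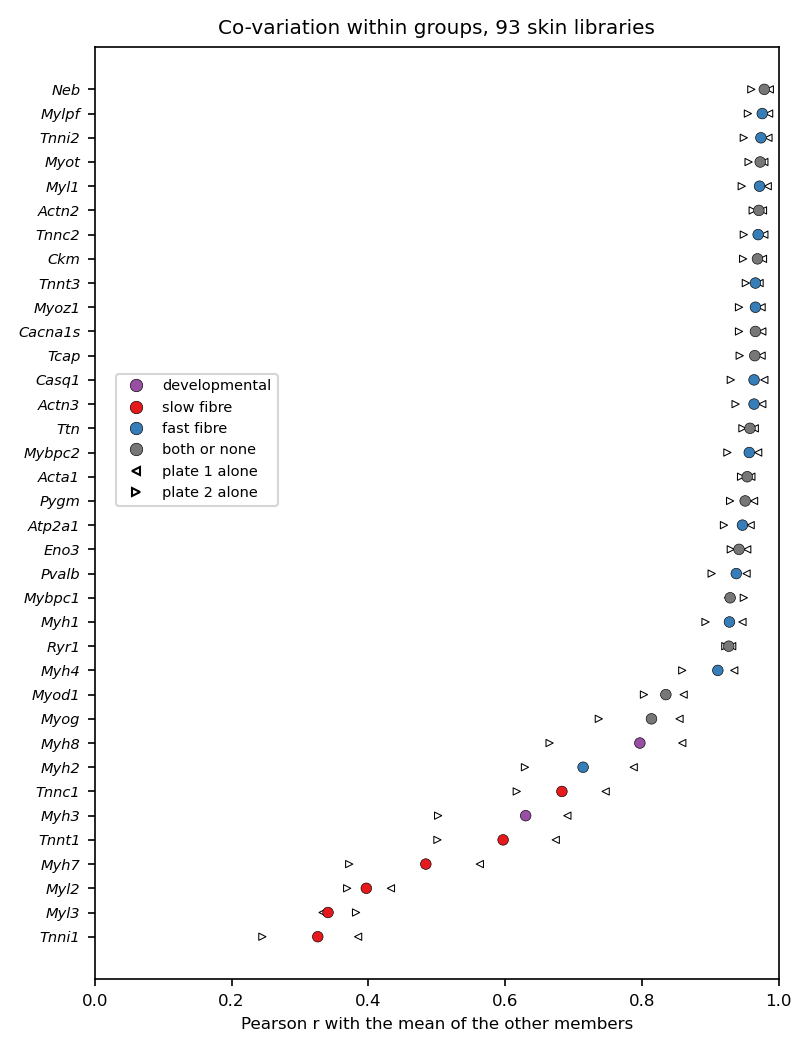
Pearson r of each gene's log2 CPM with the mean of the other 35 genes over 93 skin libraries, group and plate means subtracted (filled points, coloured by fibre type), and within each plate (open triangles). All slow-fibre and developmental genes lie below 0.8, with Myh2 as the only fast-fibre gene among them.

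Genes of satellite cells, of fusion and of the nerve contact were followed as lists. Of 9 tested genes of satellite cells and fusion 7 rose and 1 fell on day 14, where 31.5% of all genes tested rose and 28.1% fell. Mymk, the fusion protein myomaker, was at 0.463, 3.42 and 6.34 CPM after bleomycin, against 0, 0.143 and 0.565 CPM after PBS (log2 fold change 4.29 ± 0.77, adjusted p = 1.74e-06). Myf5, a factor of committed myoblasts, rose by 2.95 ± 0.59 (adjusted p = 1.69e-05) and Mymx, the second fusion protein, by 2.62 ± 0.63 (adjusted p = 0.000233). Mstn, myostatin, a secreted inhibitor of muscle growth, fell by 2.21 ± 0.63 (adjusted p = 0.00189). On day 21 7 of 9 rose (20.2% of all genes tested), led by Myf6 (3.07 ± 0.60), Pax7, the satellite cell marker (3.10 ± 0.61), and Cdh15 (2.47 ± 0.53). On days 28 and 42 3 and 1 rose, where 12.7% and 5.28% of all genes tested did.

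Of 12 tested genes of the neuromuscular junction 4 rose and 2 fell on day 14, a share near that of all genes tested (31.5% rose and 28.1% fell). The 3 with the smallest p were acetylcholine receptor subunits: Chrna1 (3.18 ± 0.43, adjusted p = 2.19e-09), Chrng, the fetal subunit (4.29 ± 0.75, adjusted p = 1.09e-06), and Chrnd (3.90 ± 0.70, adjusted p = 1.79e-06). Chrng was at 0.555, 2.23 and 4.33 CPM after bleomycin, against 0, 0.0824 and 0.329 CPM after PBS. All 12 rose on day 21, where 20.2% of all genes tested did. On day 28 5 rose (12.7% of all genes tested) and on day 42 5 rose (5.28%), Chrna1, Chrnb1 and Chrnd among them each time. On day 7 none rose and 3 fell, where 25.5% of all genes tested rose and 20.7% fell.

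Other cell types moved on the same days, and their part in the muscle results was not tested. On day 14 all 11 white adipocyte markers and all 9 dermal fibroblast markers fell, 7 of 8 macrophage markers rose, and 0 of 10 hair shaft keratins passed. Of all genes tested 31.5% rose and 28.1% fell on that day. The epidermal markers summed to 15400 to 25280 CPM after bleomycin, against 8340 to 11620 CPM after PBS. The adipocyte markers summed to 466.1 to 1680 CPM after bleomycin, against 2073 to 3087 CPM after PBS, and the fibroblast markers to 2840 to 6473 CPM, against 11430 to 21150 CPM. The macrophage markers summed to 1666 to 2489 CPM, against 1059 to 1828 CPM, and the hair shaft keratins to 19.5 to 566 CPM, against 16.6 to 1593 CPM. On day 21 all 8 macrophage markers rose (1613 to 3016 CPM, against 459 to 1562 CPM), 6 of 11 adipocyte markers fell (678 to 2490 CPM, against 1358 to 3019 CPM), and 8 of 10 hair shaft keratins fell (46.9 to 3416 CPM, against 23.6 to 48020 CPM). Of all genes tested 20.2% rose and 21.0% fell on day 21. The epidermal markers then summed to 7004 to 22870 CPM, against 5706 to 11290 CPM. Cardiac muscle shares Myh7, Myl2, Myl3 and Tnnc1 with slow fibres. Of its own markers Nppa was at 0 in every library of 5 groups and at most at 0.136 CPM elsewhere, Myl7 reached 1.59 CPM and Myh6 8.66 CPM, both in bleomycin skin on vehicle on day 21, and Tnni3 was above 0 in every library, with medians of 0.858 to 1.56 CPM.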

How the data were processed

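Skin and lung of the same mice were sequenced as total RNA; the 93 skin libraries are analysed here. The deposited table holds expected counts per gene, made by the authors with RSEM on GRCm38, per the submitters' processing notes; the aligner, the versions and whether counting used strand are not given in the sources used here. Of the deposited expected counts 83.7% were whole, and they were rounded. A second deposited table holds log2 expression values for 16160 genes and served as an alternative. Gene names came from GENCODE through the Ensembl identifiers (21852 of 22095 matched). No libraries held identical values.

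Depth ran from 14.68 to 43.07 M counts in skin. Rounded counts were filtered with filterByExpr, scaled with TMM factors and tested with edgeR 4.0.16 (R 4.3.3), by a quasi-likelihood F test with group and plate as terms over all 93 libraries, and Benjamini-Hochberg adjustment over 15825 genes (threshold 0.05). The standard error is the log2 fold change divided by the square root of F. CPM are counts per 1000000 counts with TMM scaling, and values per kb are divided by exon length. Alternatives were DESeq2 1.42.0 and its size factors, limma 3.58.1 on voom or the log2 table, no filter, no plate term, 4 plate sections, a replicate block and the 2 groups alone. The scripts were tested on simulated data.

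The 36 genes and all lists were chosen with earlier results of these data known. Values per library are given for Acta1, Ckm, Myh4, Myh2, Myh7, Myh3, Myh8, Myog, Myod1, Tnni1 and Tnni2 and for the 3 called genes with the smallest p per direction, and up to 4 genes of each other list were named by smallest p; Cdh15, Mymx, Mstn and Nppa among others are named to describe their lists.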

Additional observations from a re-analysis of the deposited data

Results flagged for a closer look

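Dixon's criterion was applied to 144 sets of values (a gene or the sum in 1 group). In 32 sets, over 14 libraries, the highest or lowest library was far from the rest. The criterion's rate of about 1 in 20 is for independent sets of normally distributed values. CPM were used without a log and the genes varied together, so 32 cannot be read as an excess over chance. Replicate 8 of PBS day 7 stood highest for the summed level (79970 CPM), Myh4 (8790 CPM), Myh3 (140.3 CPM), Myh8 (216.4 CPM), Myog (13.63 CPM), Myod1 (2.795 CPM) and Tnni1 (16.47 CPM). Replicate 5 of bleomycin day 7 stood highest for Myh3 (68.27 CPM), Myh8 (36.38 CPM), Myog (9.549 CPM) and Tnni1 (7.209 CPM), and replicate 4 of that group for Myh4 (1612 CPM). Replicate 5 of bleomycin day 14 stood highest for the sum (13632 CPM), Acta1 (622.9 CPM), Ckm (225.2 CPM) and Tnni2 (100.3 CPM).

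Slow-fibre and IIa myosin stood out in single libraries. Myh7 was at 89.77 CPM in PBS day 7 replicate 7, at 36.54 CPM in PBS day 14 replicate 6, at 44.19 CPM in replicate 3 of bleomycin with SB525334 on day 28, at 6.618 CPM in PBS day 28 replicate 6 and at 12.35 CPM in PBS day 42 replicate 1. Myh2 was at 537.6 CPM in bleomycin day 42 replicate 8, which was also highest for Myh4 (1979 CPM) and Myog (5.998 CPM), at 194.2 CPM in PBS day 14 replicate 6 and at 64.96 CPM in PBS day 42 replicate 1. Among later or other controls, PBS day 14 replicate 4 was highest for Myh3 (11.06 CPM) and Myog (4.424 CPM), PBS day 28 replicate 7 for Myh3 (21.62 CPM) and Myh8 (45.28 CPM), and PBS day 21 replicate 7 for Myh8 (97.45 CPM). The only low value was Tnni1 at 8.845 CPM in replicate 1 of bleomycin with SB525334 on day 21.

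By edgeR's quasi-likelihood test of the difference itself, the effect of bleomycin differed among the 5 days in 35 of 36 genes. Of all genes tested 62.0% did so. Without replicate 8 of PBS day 7, Myh3, Myod1 and Myh8 no longer passed. The effect was higher on day 42 than on day 14 in 23 genes (23.0% of all genes tested) and lower in 1 (27.9%). Limma voom with quality weights did not keep 19 of these 24 calls.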

How the results depend on the processing

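Apart from fits of a single plate, no alternative run turned the sign of a called change of the 36 genes. In the single-plate fits, Actn2 on day 28 differed in sign between the plates. Of 114 called gene and comparison combinations, 113 were kept with DESeq2's size factors, 105 without the filter, 113 with DESeq2, 78 with limma voom, 69 with the log2 table, 109 without the plate term, 111 with 4 plate sections and 92 with the replicate block, and 80 of 83 with the 2 groups alone. Some counts moved by over 1.5 times. Shares in brackets are those of all genes tested in the same run. On day 7 0 genes rose and 23 fell in the main fit. Voom called 2 up (31.1%), limma on log2 values 1 up and 6 down (21.1% and 22.6%), and the replicate block 14 down (20%). Leaving out PBS replicate 8 gave 2 up and 8 down (22.8% and 21.7%), and leaving out PBS replicate 7 gave 15 down (22.3%). On day 14, against 11 down, the log2 table gave 4 (28.5%) and the 2 groups alone 23 (33.1%). On day 28, against 8 up, voom gave 26 (19.5%), limma on log2 values 29 (12.3%) and the data without the 3 low PBS libraries 5 (10.6%). On day 42, against 6 up, the unfiltered data gave 3 (3.64%), voom 0 (3.85%), the replicate block 2 (4.75%) and the 2 groups alone 3 (1.97%). For day 42 minus day 14, against 23 up and 1 down, voom gave 5 up and 0 down (24.9% and 28.3%). Limma on log2 values gave 7 up (24.5%). The cause was not tested. Alternatives that leave out libraries were chosen after seeing the data. Same-numbered bleomycin and PBS libraries correlated over 0.1 in 4 of 7 cases on day 7. On days 14 and 21 they did so in 0 of 8 and 0 of 7 cases. For days 28 and 42 the cases were 2 of 7 and 2 of 8. On day 7, 3 bleomycin libraries correlated best with the PBS library of their own number, and 0 did on the other days. The main fits did not pair libraries by number, and these correlations cannot show how the mice were numbered.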

Other observations

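Of 10 transcription regulators of muscle 9 fell on day 7 (20.7% of all genes tested fell) and 7 fell on day 14 (28.1%), and none rose on these days. On day 21 7 rose (20.2% of all genes tested rose). On day 28 4 rose and 1 fell (12.7% and 11.6% of all genes tested), and on day 42 2 rose (5.28%). Vgll2, a muscle cofactor, rose by 2.84 ± 0.58 on day 21 (adjusted p = 5.08e-05, edgeR). Prox1, a factor of slow fibres that other cell types of skin also use, rose by 1.20 ± 0.23 on day 42 (adjusted p = 0.000187).

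Of 7 tested genes named for the heart 4 rose on day 14, where 31.5% of all genes tested rose. Among them were Actc1, cardiac actin (4.44 ± 0.75, adjusted p = 5.03e-07), and Myl4, the atrial light chain (2.96 ± 0.53, adjusted p = 1.73e-06). Of 11 genes linked to muscle wasting 5 rose and 4 fell on day 14, where 31.5% of all genes tested rose and 28.1% fell. Fbxo32, a ubiquitin ligase, fell by 0.91 ± 0.12 (adjusted p = 2.35e-09), and Trim63, another, rose by 2.58 ± 0.50 on day 21 (adjusted p = 2.66e-05).

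In lung, 1 library of bleomycin mice on vehicle on day 28, replicate 2, held 15560 CPM of the 36 genes, against at most 1222 CPM in the other lung libraries.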
